A study of Mus musculus with 10 samples.

Results

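The genes of acetylcholine signalling examined here were 9 named genes, the muscarinic receptors *Chrm1* to *Chrm5*, acetylcholinesterase (*Ache*) and the nicotinic receptor subunits *Chrna4*, *Chrna7* and *Chrnb2*. They were taken from the table of CPM values (tag counts scaled so that every library has the same total) by their gene symbols. Of these 9 genes, 7 were among the 15900 genes listed, and *Chrm3* and *Chrm5* were not analysed here. Cap analysis of gene expression (CAGE), which sequences the capped 5′ ends of transcripts, had been carried out on the whole hippocampus of 10 male ICR mice aged 9 to 10 weeks, 2 in each of 5 groups. Pre-SE mice, labelled untreated, had no status epilepticus (SE) induced by pilocarpine (PILO); the study's methods describe control mice as given saline instead of PILO. The other mice received methyl scopolamine at 1 mg/kg, a muscarinic antagonist that hardly enters the brain, then PILO at 290 mg/kg, and diazepam at 10 mg/kg to end the seizures. SE 6 h and SE 2 days mice received no further drug, and SE + LEV 6 h and SE + LEV 2 days mice received oral levetiracetam (LEV) at 360 mg/kg, 1 time and 5 times before sampling. Where a time is given without mention of LEV, it refers to the mice without LEV. All PILO groups therefore differed from pre-SE mice by PILO, seizures and the accompanying drugs together, and their parts cannot be told apart. Whether the pre-SE mice were given methyl scopolamine or diazepam is not clear from the labels and methods.

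Acetylcholine reaches the hippocampus mainly from neurons of the medial septum and diagonal band, whose cell bodies lie outside it. Muscarinic receptors are coupled to G proteins: M1, M3 and M5 act through Gq and phospholipase C and close Kcnq potassium channels, whereas M2 and M4 act through Gi/o, lower cAMP and open Kcnj (GIRK) channels. Nicotinic receptors are ion channels made of 5 subunits, in the brain chiefly *Chrna7* alone or *Chrna4* with *Chrnb2*, and acetylcholinesterase ends the signal by hydrolysis. PILO is a muscarinic agonist whose seizures in mice depend on M1, so the question addressed here was whether the transcripts of its receptors and of their pathway differed after PILO-SE, and whether they differed with LEV.

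In none of the 11 comparisons did any of the 7 genes pass the test (limma on log2(CPM + 0.1), adjusted p of at most 0.05 over the 15851 genes tested). Over the 4 groups that had received PILO, the most negative estimates against pre-SE mice were those of *Chrm2*, *Chrm1* and *Chrna7*. In *Chrm1*, which encodes the M1 receptor, all 8 mice that had received PILO lay below both pre-SE mice, as in 6.49% of all genes. The logFC, a difference on the log2(CPM + 0.1) scale, was −0.56 (SE 0.21, n = 8 against 2) over the 4 PILO groups and had an adjusted p of 0.212. Of 42 other genes of the pathway, 2 passed the test at 6 h, both higher, beside 2.96% of all genes. At 2 days 4 passed as higher and 1 as lower, beside 5.66%. They were the G protein regulators *Rgs2*, *Rgs4* and *Rgs7*, the Gq effector *Plcb3*, the receptor-binding protein *Lypd1* and the muscle-type subunit *Chrne*. The 2-day calls of *Rgs4*, *Plcb3* and *Lypd1* were lost without any 1 of the mice compared. The gene from which the tags of *Chrne* came is uncertain if strand was ignored.

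The libraries held 10540698 to 51710968 tags on the listed genes, and a floor of 3 tags corresponded to 0.058 to 0.285 CPM. A CAGE tag marks the start of a transcript whatever its length, so CPM can be set side by side between genes. The summed CPM of *Fos*, *Fosl1*, *Atf3*, *Npas4* and *Gfap*, which mark seizure activity and gliosis, was 249 to 255 in the pre-SE group and 525 to 3994 in the 8 PILO mice. Replicates differed in more than depth. The summed CPM of the 3 choroid plexus markers listed ran from 8.5 to 3999 between the 2 SE 6 h mice and from 12.5 to 1703 between the 2 pre-SE mice, and 1 component held 35.7% of the variance within groups. The labels do not say that mice of 1 group came from separate litters or days. Fewer cells of a type and less RNA per cell cannot be told apart in whole tissue. The 5 markers of cholinergic neurons (*Chat*, *Slc18a3*, *Slc5a7*, *Isl1* and *Lhx8*) were not analysed here.

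Among the 7 genes, *Chrm1* had the highest level and *Chrm2* the lowest. In pre-SE mice the mean was 203 CPM ± 6.7 (SD, n = 2) for *Chrm1*, followed by 69.3 ± 11.8 for *Ache*, 64.6 ± 5.9 for *Chrna7* and 25.3 ± 8.1 for *Chrnb2*. The lower levels were 19.5 CPM ± 11.8 for *Chrm4*, 9.96 ± 2.1 for *Chrna4* and 5.06 ± 0.28 for *Chrm2*. The pre-SE mice of neighbours in this order overlapped between *Ache* and *Chrna7*, between *Chrnb2* and *Chrm4*, and between *Chrm4* and *Chrna4*. The other neighbours did not overlap. Over all 10 libraries, the mean level of *Chrm1* (152 CPM) was at percentile 91.2 of the listed genes and that of *Chrm2* (3.77 CPM) at percentile 21.5. The values of *Chrm1* rested on 1527 to 10758 tags per mouse and those of *Chrm2* on 30 to 272, so the counting error of *Chrm2* was larger.

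**Figure D1:**
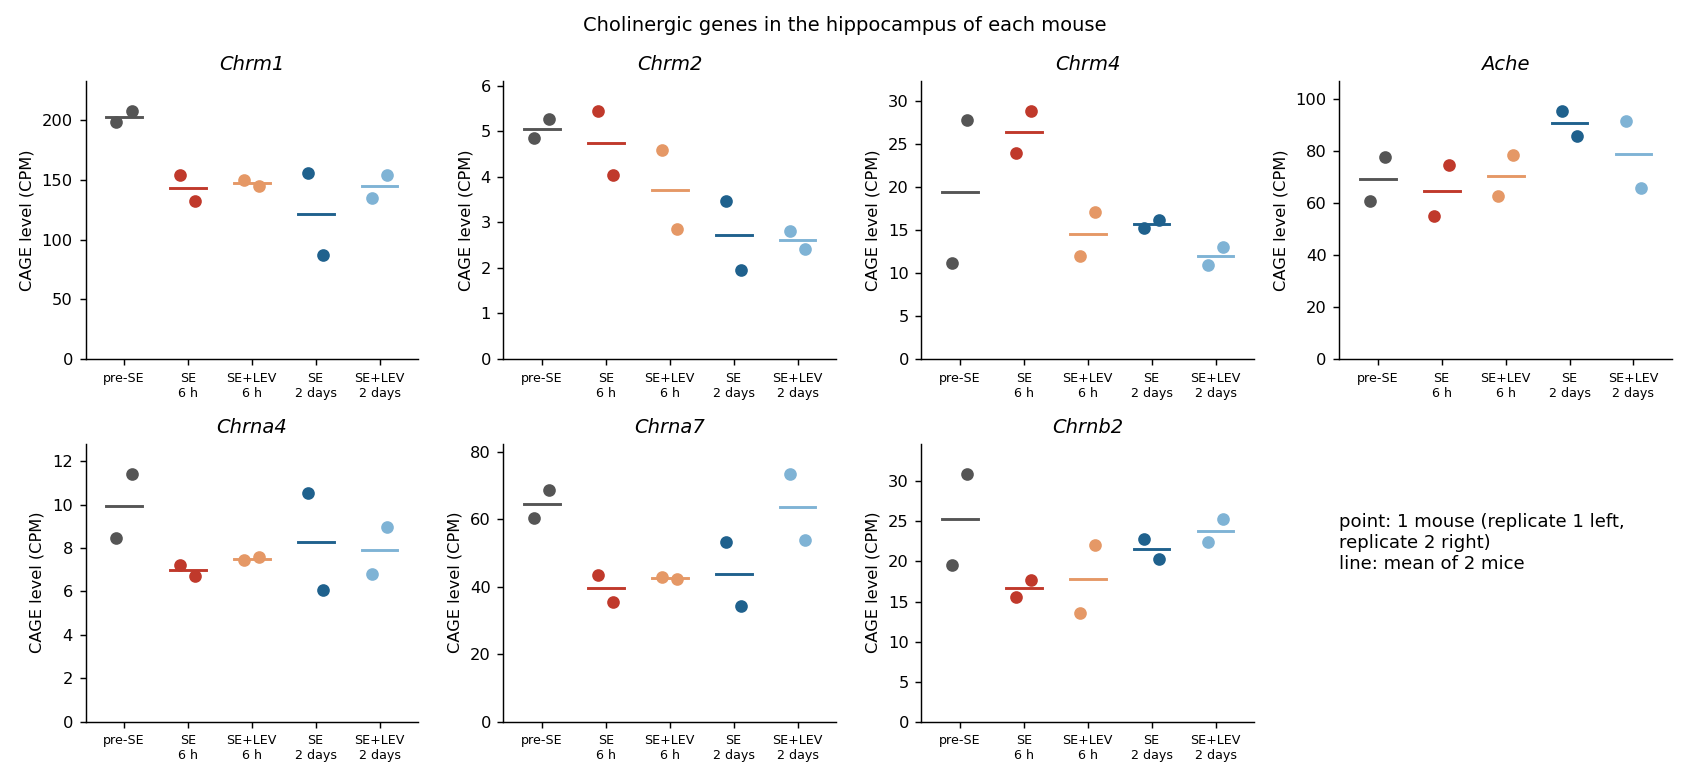
CAGE level of 7 cholinergic genes in each of 10 mice, in CPM on linear axes from 0, with 1 panel per gene and 1 column per group. Points are mice and lines are means of 2 mice; in *Chrm1* the 8 PILO mice sit between 87.6 and 156 CPM, below the pre-SE mice at 199 and 208 CPM.

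*Chrm1* (ENSMUSG00000032773, mm9 chromosome 19 from 8738495 to 8758077, plus strand) encodes M1, the main muscarinic receptor of pyramidal neurons, and overlaps *7SK* on the other strand. Its level was 199 and 208 CPM in the pre-SE group, 154 and 133 at 6 h and 150 and 145 at 6 h with LEV. At 2 days it was 156 and 87.6 CPM without LEV and 135 and 155 with LEV. Each of the 4 PILO groups thus lay below the pre-SE mice without overlap, and the groups with and without LEV overlapped at both times. Of all genes tested, 31.3% lay below the pre-SE mice in this way at 6 h and 25.6% at 2 days. With LEV the shares were 25.5% and 17.5%. The logFC against pre-SE mice was −0.51 (SE 0.27, adjusted p = 0.354) at 6 h and −0.80 (SE 0.27, adjusted p = 0.125) at 2 days, both with limma. The second value rested on 1 mouse: without SE 2 days replicate 2 it was −0.38, and without SE 2 days replicate 1 it was −1.21 with an adjusted p of 0.0324. For the mean of the 4 PILO groups the 95% interval of the logFC was −1.04 to −0.09. In an exact permutation test of the 8 PILO mice against the 2 pre-SE mice (two-sided, 45 regroupings, smallest possible p 0.0222), *Chrm1* had p = 0.0444 without adjustment.

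Pan-neuronal and pyramidal neuron markers were also lower than in pre-SE mice in many of the libraries, which did not hold for all neuronal marker lists. The summed CPM of 5 pan-neuronal markers (*Rbfox3*, *Snap25*, *Syt1*, *Stmn2* and *Tubb3*, all listed) was 4244 to 4944 in the pre-SE group, 3353 to 4587 at 6 h and 2722 to 3270 at 2 days without LEV, and 3461 to 4413 and 2731 to 2987 with LEV. The sum of 5 pyramidal neuron markers was 4507 to 5424 CPM in the pre-SE group and 1890 to 4793 in the 8 PILO mice. The 2 dentate granule cell markers listed summed to 85.4 to 90.8 CPM in the pre-SE group. At 6 h they were at 128 to 157 CPM without LEV and 120 to 172 with LEV. At 2 days they were at 62.2 to 116 CPM without LEV and 79.7 to 93.7 with LEV. Summed interneuron markers were 989 to 1206 CPM in the pre-SE group and 916 to 1993 in the 8 PILO mice. As a percentage of the pan-neuronal sum, *Chrm1* was at 4.02 and 4.9 in the pre-SE group and between 3.22 and 5.18 in the PILO mice, so that the 2 ranges overlapped. In the SE 6 h mice it was 3.35 and 3.96, below both pre-SE mice. In the SE + LEV 2 days mice it was 4.96 and 5.18, above both pre-SE mice. As a percentage of the pyramidal sum, it was at 3.66 and 4.62 in the pre-SE group and between 3.14 and 5.79 in the PILO mice, of which 6 of 8 were above both pre-SE mice. The part of the neuronal markers in the lower level of *Chrm1* was not tested.

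**Figure D2:**
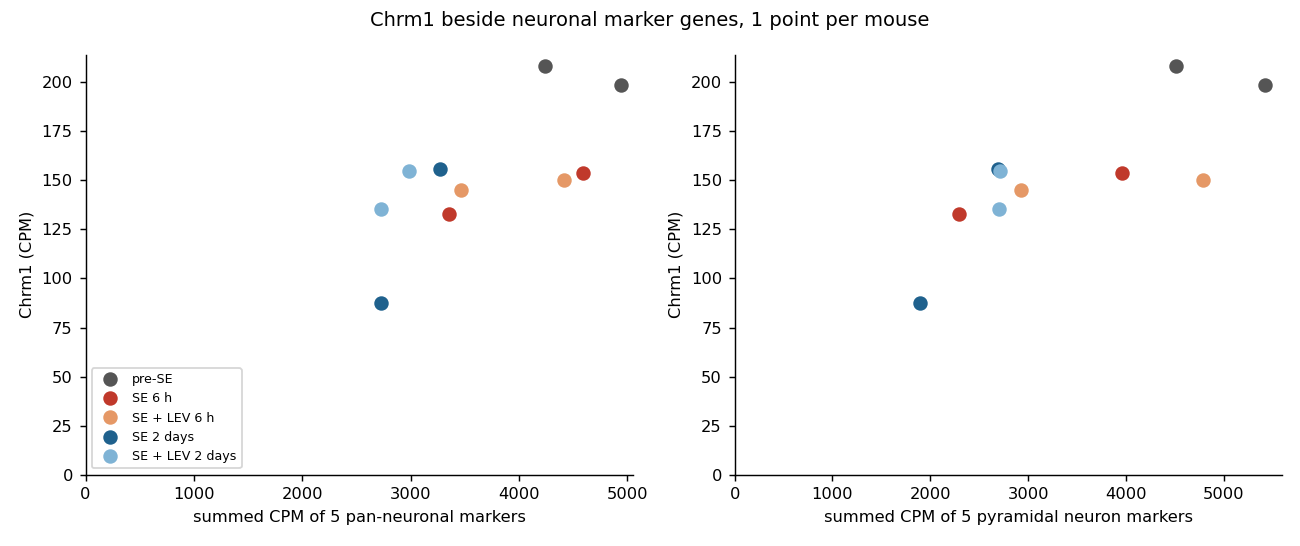
*Chrm1* (CPM, vertical axes) against the summed CPM of 5 pan-neuronal markers (left) and 5 pyramidal neuron markers (right), 1 point per mouse, coloured by group. The pre-SE mice are highest in *Chrm1* and at 4244 and 4944 CPM of pan-neuronal markers, and SE 2 days replicate 2 is lowest at 87.6 and 2722 CPM.

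*Chrm2* (ENSMUSG00000045613, chromosome 6 from 36338084 to 36478414, plus strand) encodes M2, the receptor that restrains acetylcholine release from nerve endings. It was measured at 4.86 and 5.26 CPM in the pre-SE group, 5.45 and 4.04 at 6 h and 4.59 and 2.85 at 6 h with LEV. The corresponding values at 2 days were 3.48 and 1.96 CPM without LEV and 2.81 and 2.42 with LEV. All 4 mice sampled at 2 days were below both pre-SE mice, whereas the SE 6 h mice fell on either side of them. Of all genes tested, 25.6% lay below in this way at 2 days without LEV and 17.5% with LEV. The logFC against pre-SE mice was −0.93 (SE 0.40) at 2 days both without LEV (adjusted p = 0.23) and with LEV (adjusted p = 0.416), and −0.11 at 6 h, by limma. Without SE 2 days replicate 2 the 2-day value without LEV was −0.53. The gene overlaps *9330158H04Rik* on the other strand and holds *Mir490* on its own, and the study's text does not state whether strand was used when tags were assigned to genes.

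*Chrm4* (ENSMUSG00000040495, chromosome 2 from 91762346 to 91769986, plus strand) encodes M4, which like M2 couples to Gi/o. The pre-SE mice had 11.2 and 27.9 CPM and the SE 6 h mice 24 and 28.9, and these groups overlapped. With LEV at 6 h the values were 12 and 17.2 CPM, both below the SE 6 h mice. At 2 days they were 15.3 and 16.1 CPM without LEV and 10.9 and 13.1 with LEV, so that LEV mice were again below mice without LEV. Of all genes tested, 13.4% lay lower with LEV in this way at 6 h and 12.2% at 2 days. The logFC with LEV was −0.87 (SE 0.40, unadjusted p = 0.0528, adjusted p = 1.0) at 6 h and −0.63 (95% interval −1.26 to −0.01, adjusted p = 0.923) as the mean over both times, by limma. These values do not pass the test. Against pre-SE mice the logFC was 0.58 at 6 h and −0.17 at 2 days, and each changed sign without 1 pre-SE mouse (−0.079 at 6 h without replicate 1 and 0.49 at 2 days without replicate 2). *Chrm4* overlaps *Mdk*, which encodes the growth factor midkine, on the other strand; *Mdk* was listed as a separate gene.

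*Ache* (ENSMUSG00000023328, chromosome 5 from 137728747 to 137735694, plus strand) was the only one of the 7 genes whose SE 2 days mice both lay above the pre-SE mice. Of all genes tested, 26.3% lay above in this way. It had 60.9 and 77.6 CPM in the pre-SE group, 54.9 and 74.8 at 6 h, and 62.7 and 78.6 at 6 h with LEV. In the SE 2 days mice it was at 95.6 and 85.9 CPM, above both pre-SE mice, and at 2 days with LEV at 91.8 and 65.8 CPM, which overlapped with them. The logFC at 2 days was 0.40 (SE 0.26, 95% interval −0.18 to 0.98, limma adjusted p = 0.455), and 0.22 without pre-SE replicate 1. At 6 h it was −0.10, a sign that turned when the libraries were rescaled, and all genes tested had a median of −0.13 there. Butyrylcholinesterase (*Bche*), the other enzyme that hydrolyses acetylcholine, was chosen after its values were seen and was at 4.97 and 6.01 CPM in the pre-SE group and 2.59 and 1.53 at 2 days (logFC −1.41, limma adjusted p = 0.0638).

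*Chrna7* (ENSMUSG00000030525, chromosome 7 from 70243578 to 70357455, minus strand) had a more negative logFC than *Chrna4* and *Chrnb2* in SE 6 h and in SE 2 days against pre-SE mice. It forms calcium-permeable receptors of a single kind of subunit that occur on hippocampal interneurons. The pre-SE mice were at 60.5 and 68.8 CPM and the SE 6 h mice at 43.7 and 35.6, with the SE + LEV 6 h mice at 42.9 and 42.2. At 2 days the values were 53.2 and 34.4 CPM without LEV and 73.6 and 53.9 with LEV. Hence 7 of the 8 PILO mice were below both pre-SE mice, and 1 SE + LEV 2 days mouse was above them. The logFC was −0.71 (SE 0.27, unadjusted p = 0.0245, adjusted p = 0.21) at 6 h and −0.59 (adjusted p = 0.258) at 2 days, and with LEV against without LEV at 2 days it was 0.56 (SE 0.27, adjusted p = 1.0), by limma. Without SE 2 days replicate 2, the lower of its pair, these 2-day values were −0.28 and 0.24, and without replicate 1 they were −0.90 and 0.87. Without SE + LEV 2 days replicate 1 the latter was 0.33. The LEV mice at 2 days lay above the mice without LEV by a narrow margin, 53.9 against 53.2 CPM, and 15.2% of all genes tested lay higher without overlap. Summed interneuron markers were 989 to 1206 CPM in the pre-SE group and 1204 to 1886 at 6 h. At 2 days they were 1007 to 1993 CPM, and with LEV 1004 to 1230 at 6 h and 916 to 1049 at 2 days. The relation of these markers to *Chrna7* was not tested.

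*Chrna4* (ENSMUSG00000027577, chromosome 2 from 180753085 to 180778251, minus strand) and *Chrnb2* (ENSMUSG00000027950, chromosome 3 from 89557370 to 89568554, minus strand) encode the 2 subunits of the high-affinity nicotinic receptor. *Chrna4* had 8.48 and 11.4 CPM in the pre-SE group, 7.22 and 6.71 at 6 h, 7.44 and 7.59 at 6 h with LEV, 10.5 and 6.07 at 2 days and 6.81 and 8.99 at 2 days with LEV. *Chrnb2* had 19.5 and 31 CPM in the pre-SE group, 15.6 and 17.7 at 6 h, 13.6 and 22 at 6 h with LEV, 22.8 and 20.4 at 2 days and 22.4 and 25.3 at 2 days with LEV. Both genes were below the pre-SE mice without overlap at 6 h, as in 31.3% of all genes tested. They overlapped with the pre-SE mice at 2 days. The logFC at 6 h was −0.49 (SE 0.35, adjusted p = 0.484) for *Chrna4* and −0.56 (SE 0.32, adjusted p = 0.376) for *Chrnb2*, and at 2 days −0.30 and −0.19, by limma. Without pre-SE replicate 2, the higher of its pair in both genes, the 6 h values were −0.28 and −0.23. Over the 10 libraries the 2 genes had a Pearson correlation of 0.61 in log2(CPM + 0.1); all points share the total of their library.

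**Figure D3:**
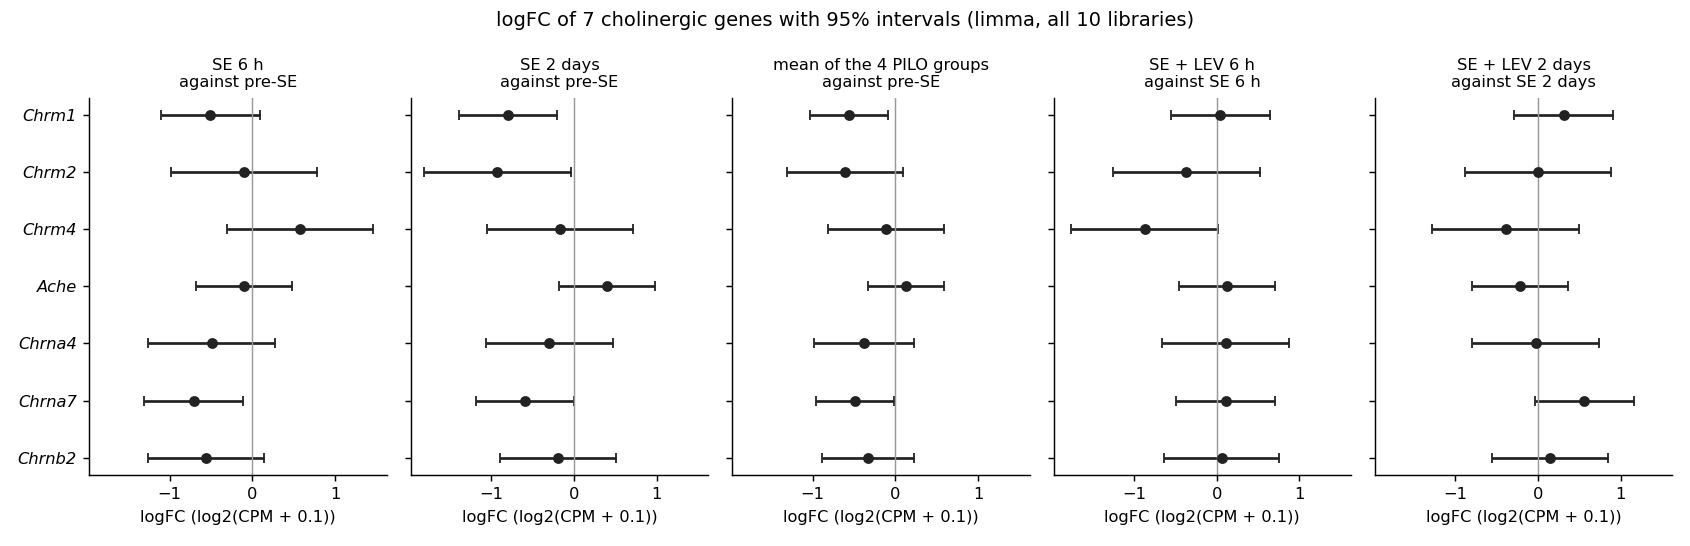
logFC of the 7 genes (points, horizontal axes, log2(CPM + 0.1) scale) with 95% intervals (bars) from limma in 5 comparisons. Intervals that leave out 0 before adjustment are those of *Chrna7* at SE 6 h, *Chrm1* and *Chrm2* at SE 2 days, and *Chrm1* and *Chrna7* over the 4 PILO groups.

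As a group, the 7 genes were compared with all genes tested. In SE 6 h against pre-SE mice 0 of 7 passed the limma test, beside 2.96% of all genes, and in SE 2 days against pre-SE mice 0 of 7, beside 5.66%. These shares stand for 469 and 897 genes, which fell to 111 without SE 6 h replicate 2 and to 249 without SE 2 days replicate 2. At an unadjusted p under 0.05, 1 of 7 was lower at 6 h (*Chrna7*; 8.51% of all genes) and 2 of 7 at 2 days (*Chrm1* and *Chrm2*; 7.29%). At 6 h, 4 of 7 (*Chrm1*, *Chrna4*, *Chrna7* and *Chrnb2*) had both SE mice below both pre-SE mice, as 31.3% of all genes did, and at 2 days 3 of 7 (*Chrm1*, *Chrm2* and *Chrna7*), beside 25.6%. The estimates were below 0 for 6 of 7 genes at each time. Their median logFC was −0.49 at 6 h and −0.30 at 2 days, beside −0.13 and −0.03 for all genes. Relative to the median of all genes at 6 h, *Chrna7* was at −0.58 and *Chrm1* at −0.38. edgeR's quasi-likelihood test and DESeq2 on the recovered tags also called 0 of 7 in both comparisons.

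Over the 4 PILO groups together, 0 of 7 passed the limma test, beside 3.08% of all genes, and 2 of 7 (*Chrm1* and *Chrna7*) were lower at an unadjusted p under 0.05, beside 5.9%. Only *Chrm1* had all 8 PILO mice below both pre-SE mice, as 6.49% of all genes did. In the exact permutation test 1 of 7 genes had an unadjusted p of at most 0.05, beside 10.5% of all genes, which is near the share of the 7 genes. The exact p was 0.0889 for *Chrna7*, 0.111 for *Chrna4*, 0.133 for *Chrm2*, 0.244 for *Chrnb2*, 0.578 for *Ache* and 0.844 for *Chrm4*.

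LEV went with no difference in the 7 genes that passed the test. Against mice without LEV, 0 of 7 passed the limma test at 6 h, beside 0.0126% of all genes, and 0 of 7 at 2 days, beside 0.0%. Neither did any pass in the mean over both times (0.0% of all genes) or in the difference between the times (0.0%). At an unadjusted p under 0.05 there were 0 of 7 genes at 6 h, 0 at 2 days, 1 in the mean over both times (*Chrm4*, lower, as were 3.63% of all genes) and 0 in the difference between the times. For *Chrm1* the 95% interval of the logFC with LEV was −0.55 to 0.64 at 6 h and −0.29 to 0.90 at 2 days, so the data leave room for differences of either sign. For *Chrm2* the intervals were −1.25 to 0.52 and −0.89 to 0.88. The LEV groups were also compared with pre-SE mice: 0 of 7 passed at 6 h, beside 0.322% of all genes, and 0 of 7 at 2 days, beside 2.85%, where *Chrm2* was lower at an unadjusted p of 0.0413 (1.91% of all genes were lower at this level). Between 6 h and 2 days, 0 of 7 passed without LEV, beside 4.25%, and with LEV, beside 2.14%, with 0 of 7 in both at an unadjusted p under 0.05. edgeR and DESeq2 called 0 of 7 in each of these comparisons.

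The wider list held 57 genes of acetylcholine synthesis and uptake, hydrolysis, other nicotinic subunits and their accessory proteins, the Gq and Gi arms, and receptor desensitisation, of which 42 were listed. *Chat*, *Slc18a3* and *Slc5a7*, which make, load and take up acetylcholine or its precursor, were not analysed here. In SE 6 h against pre-SE mice 2 of the 42 were called higher and 0 lower, and in SE 2 days against pre-SE mice 4 were called higher and 1 lower; all genes were called at 2.96% and 5.66% in these comparisons. The median logFC of the 42 genes was −0.16 at 6 h and −0.32 at 2 days. In the comparisons of LEV with no LEV, 0 of the 42 were called at either time by limma.

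*Rgs7*, *Rgs2* and *Rgs4* encode regulators of G protein signalling, which speed up the hydrolysis of GTP by Gi/o and, for *Rgs2* above all, Gq. *Rgs7* (ENSMUSG00000026527, chromosome 1 from 176989867 to 177421261, minus strand) was at 2.31 and 1.24 CPM in the pre-SE group and at 50.6 and 37.2 at 6 h. It was at 19.9 and 28.3 CPM at 6 h with LEV, 6.78 and 20.2 at 2 days and 5.35 and 9.16 at 2 days with LEV. All 8 PILO mice were above both pre-SE mice, as in 5.66% of all genes tested. The RefSeq start of *Rgs7* lies 1415 bases upstream of the 5′ end of the gene given above. From which start its tags came was not tested. *Rgs7* rose at 6 h without LEV (logFC 4.60, SE 0.52, adjusted p = 0.00234) and with LEV (3.73, adjusted p = 0.0195), and at 2 days without LEV (2.72, adjusted p = 0.0135), by limma. Over the 4 PILO groups its logFC was 3.26 (adjusted p = 0.00352). The call at 2 days was lost without pre-SE replicate 2 (adjusted p = 0.0903) or SE 2 days replicate 2 (logFC 1.94, adjusted p = 0.127). The call at 6 h with LEV was lost without either pre-SE mouse or either SE + LEV 6 h mouse (adjusted p 0.0606 to 0.13) and that over the 4 groups without pre-SE replicate 2 (adjusted p = 0.0513). The difference of SE + LEV from SE 6 h mice in *Rgs7* had a logFC of −0.87 (adjusted p = 1.0).

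*Rgs2* was at 35.7 and 48.2 CPM in the pre-SE group, 215 and 134 at 6 h, 167 and 84.8 at 6 h with LEV, 157 and 335 at 2 days and 96.8 and 41.7 at 2 days with LEV. *Rgs4* was at 275 and 236 CPM, 1023 and 728, 779 and 420, 873 and 1072, and 771 and 284 in the same order. In both genes the mice without LEV lay above the pre-SE mice at both times. Of all genes tested, 18.6% lay above in this way at 6 h and 26.3% at 2 days. In both genes the LEV mice at 2 days lay below the mice without LEV, as in 12.2% of all genes tested. At 2 days without LEV, *Rgs2* rose by a logFC of 2.46 (SE 0.49, adjusted p = 0.017) and *Rgs4* by 1.93 (SE 0.45, adjusted p = 0.0342), by limma. At 6 h the logFC was 2.03 (adjusted p = 0.061) and 1.76 (adjusted p = 0.0717), and with LEV against without LEV at 2 days it was −1.85 (unadjusted p = 0.00371, adjusted p = 1.0) and −1.05 (unadjusted p = 0.0414, adjusted p = 1.0). The 2-day call of *Rgs2* was lost without either pre-SE mouse (adjusted p = 0.117 and 0.0538) or SE 2 days replicate 2 (0.189), and that of *Rgs4* without any 1 of the 4 mice compared (0.0813 to 0.25).

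**Figure D4:**
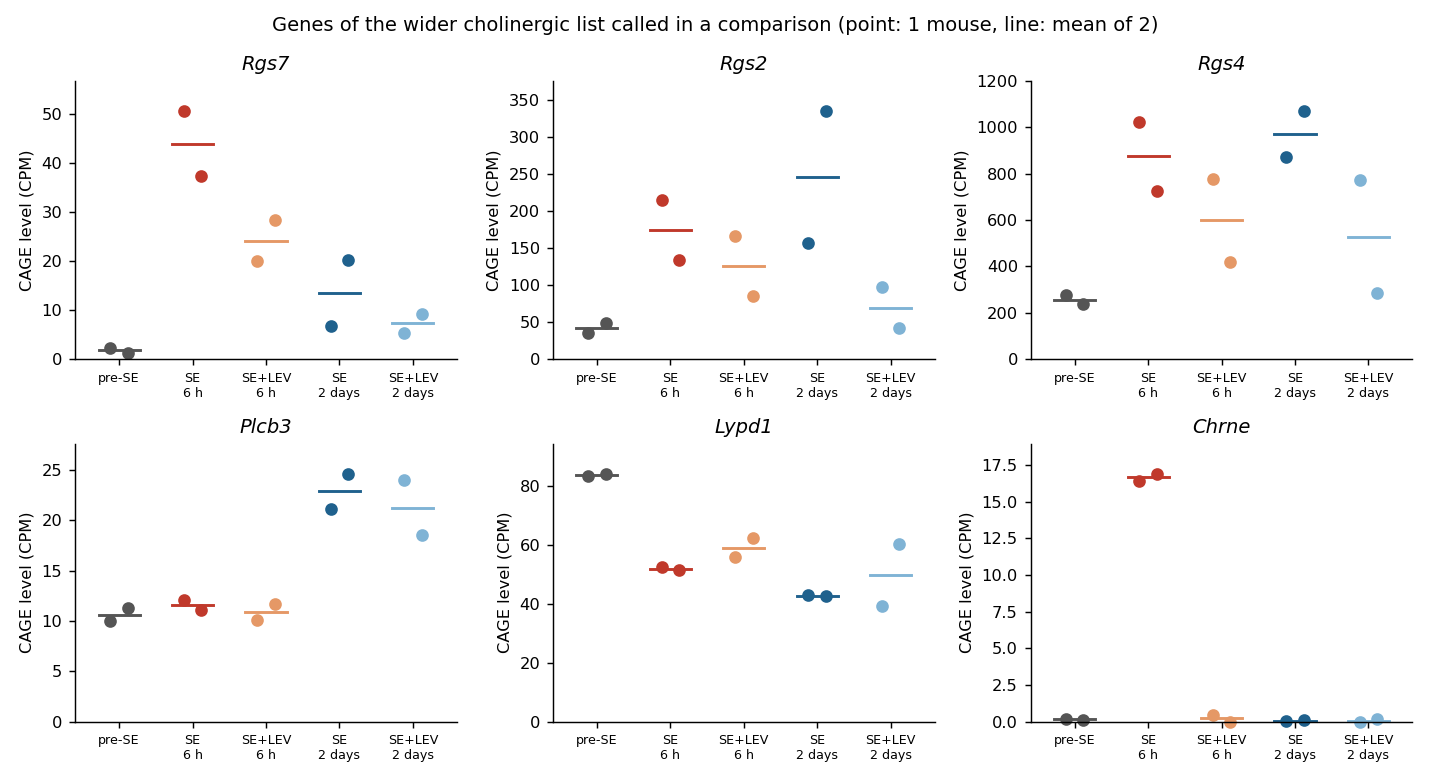
CAGE level (CPM, linear axes from 0) of the 6 genes of the wider list called in a comparison, 1 point per mouse and a line at the mean of 2 mice. *Rgs7* is above pre-SE in all 8 PILO mice, *Plcb3* is higher in all 4 mice at 2 days, and *Chrne* reaches 16.4 and 16.9 CPM at 6 h and is at 0.47 CPM or less in the others.

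*Plcb3* encodes a phospholipase C that Gq activates. It was at 10 and 11.3 CPM in the pre-SE group and at 21.2 and 24.7 at 2 days, and at 24 and 18.5 at 2 days with LEV, whereas the 4 mice at 6 h were between 10.1 and 12.1 CPM. All 4 mice at 2 days were above the other 6. It rose at 2 days without LEV (logFC 1.10, SE 0.27, limma adjusted p = 0.0395); with LEV the logFC against pre-SE mice was 0.98 (adjusted p = 0.0998). The summed astrocyte markers were 812 to 891 CPM in the pre-SE group and 2726 to 4128 in the 4 mice at 2 days, and those of microglia and macrophages 122 to 128 and 320 to 400.7 CPM; their part in the level of *Plcb3* was not tested. *Lypd1*, which encodes a membrane-anchored protein that binds nicotinic receptors and lowers their response and whose gene overlaps *Gpr39* on the other strand, was at 83.4 and 84.3 CPM in the pre-SE group, 52.4 and 51.7 at 6 h and 43 and 42.7 at 2 days. With LEV the 4 mice were between 39.3 and 62.4 CPM. All 8 PILO mice were thus below both pre-SE mice, as in 6.49% of all genes tested. *Lypd1* fell at 2 days (logFC −0.97, SE 0.24, limma adjusted p = 0.0431). The calls of *Plcb3* and *Lypd1* lay near the threshold: leaving out any 1 of the mice compared raised the adjusted p to between 0.0788 and 0.277 for *Plcb3* and between 0.114 and 0.239 for *Lypd1*.

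*Chrne* (ENSMUSG00000014609, chromosome 11 from 70428385 to 70432718, minus strand), the epsilon subunit of the adult muscle receptor, had the largest logFC of the list. It was at 0.21 and 0.1 CPM in the pre-SE group (6 and 5 tags) and at 16.4 and 16.9 CPM at 6 h (511 and 247 tags). In SE + LEV 6 h mice it was at 0.47 and 0 CPM (14 and 0 tags), and at 2 days at 0.04 and 0.1 CPM without LEV and 0 and 0.16 with LEV. Both SE 6 h mice were thus far above the other 8 mice, which held 0 to 14 tags each. The ratio of pooled tags, scaled to the library totals, was 122 in SE 6 h against pre-SE mice (95% exact interval 67.5 to 244, counting error only) and 48.1 against SE + LEV 6 h mice (28.5 to 88.4). By limma it rose at 6 h (logFC 6.07, SE 0.77, adjusted p = 0.00356; 0.0727 with a pseudocount of 0.01) and fell from 6 h to 2 days (logFC −6.65, adjusted p = 0.00285). With LEV against without LEV at 6 h the logFC was −6.13 (SE 0.77, adjusted p = 0.0509), just above the threshold and so not called. *Chrne* overlaps *4930544D05Rik*, annotated on the other strand, so the gene from which its tags came is uncertain if strand was ignored.

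Some other genes of the Gi and Gq arms were lower at an unadjusted p under 0.05 by limma without passing the test. Over the 4 PILO groups these were 1 of 7 genes of the Gi arm and 0 of 11 of the Gq arm, beside 5.9% of all genes. At 2 days without LEV they were 1 of 7 and 2 of 11, beside 7.29%. Those named here were chosen after their values were seen. *Kcnj9*, a GIRK channel subunit that Gi-coupled receptors open, was at 32.4 and 43.3 CPM in the pre-SE group and between 14.5 and 27.1 in the 8 PILO mice (logFC over the 4 groups −0.91, limma adjusted p = 0.0584). *Kcnq3*, a subunit of the M-current channel that M1 closes, was at 65.2 and 36.1 CPM in the pre-SE group and at 19.8 and 19 at 2 days (logFC −1.32, limma adjusted p = 0.0839).

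The starts of these genes were examined in the RefSeq promoters, which cover 250 bases before and 50 after a start on GRCm38.p6. Of the 7 genes, 6 have an entry (not *Chrm1*), and each sequence matched mm9 once and without a mismatch. Letters were searched on both strands. Those of AP-1 were TGANTCA, found in 7.81% of the 32851 promoters. The CRE was spelled TGACGTCA and found in 1.79% of promoters, and Egr letters, GCGTGGGCG with the alternative GCGGGGGCG, in 3.47%. The TATA box was searched as TATAAA and found in 13.6%. The matches named here do not overlap each other. *Ache* holds the Egr letters at 2 places and *Chrna7* at 1, and the 6 promoters hold none of the other 3 motifs. The matched Egr letters are all G or C. These bases made up 74.0% of the *Ache* promoter and 70.0% of that of *Chrna7*, beside a median of 52.7% over all promoters. Among called genes, *Rgs4* holds TATAAA at −31 from the start and *Plcb3* the AP-1 letters at −153 and Egr letters across its start, which are not shown. The bases before the start are shown for these 3 genes, since each holds a different one of these motifs, with the matches in capitals; a match is a description of letters and not evidence of binding. They lie at chr7:70357456-70357662, chr1:171677774-171678023 and chr19:7044305-7044554 of mm9, all on the minus strand, and run 5′ to 3′. That of *Chrna7* ends 44 bases before the start, where an annotated exon begins.
Chrna7: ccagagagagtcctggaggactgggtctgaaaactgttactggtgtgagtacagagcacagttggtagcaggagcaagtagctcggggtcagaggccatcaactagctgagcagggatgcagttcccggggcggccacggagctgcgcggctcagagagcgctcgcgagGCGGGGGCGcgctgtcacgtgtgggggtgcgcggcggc
Rgs4: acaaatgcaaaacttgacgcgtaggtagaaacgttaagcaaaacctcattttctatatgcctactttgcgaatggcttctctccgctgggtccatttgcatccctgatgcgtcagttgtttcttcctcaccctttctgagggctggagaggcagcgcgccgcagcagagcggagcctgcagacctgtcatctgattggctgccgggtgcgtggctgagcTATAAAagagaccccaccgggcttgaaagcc
Plcb3: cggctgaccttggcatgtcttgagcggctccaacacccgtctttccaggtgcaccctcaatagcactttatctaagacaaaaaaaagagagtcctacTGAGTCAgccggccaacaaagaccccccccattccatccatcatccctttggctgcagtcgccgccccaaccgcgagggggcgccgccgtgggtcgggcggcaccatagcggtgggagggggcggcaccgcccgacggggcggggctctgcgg

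The genes whose levels followed each of the 7 most closely over the 10 libraries were found by Pearson's r of log2(CPM + 0.1) among 14220 genes with a mean of at least 1 CPM. These are descriptions, given without a p, and all points share the total of their library. For *Chrm1* they were *2610018G03Rik* (r = 0.989), *Hspa12a* (0.987) and *Clgn* (0.974). For *Chrm2* they were *Tspyl4* (0.929), *Gucy1a2* and *Bin1*, and for *Chrm4* they were *Kpna4* (0.898), *Gm16386* and *Kcnk12*. *Ache* was followed by *Lman2* (0.966), *Gm10136* and *Rpl36-ps2*, the last of which can share tags with other copies. The nicotinic subunits were followed by *Mfsd4* (0.934), *Mat2b* and *Bnip3l* for *Chrna4*, by *Vps72* (0.97), *2210012G02Rik* and *Chmp3* for *Chrna7*, and by *B4galnt1* (0.983), *6720456H20Rik* and *2510002D24Rik* for *Chrnb2*. Between members, r was highest between *Chrm1* and *Chrna4* (0.77) and between *Chrm1* and *Chrm2* (0.73), and lowest between *Chrm2* and *Ache* (−0.55).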

How the data were processed

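The data are CAGE libraries from the hippocampi of 10 mice, grouped by the labels into 5 groups of 2. The authors mapped tags to mm9 with BWA (version 0.7.17) and HISAT2 (version 2.0.5), formed clusters by RECLU, removed those under 0.1 CPM, and deposited CPM per gene for every mouse. How clusters were summed to genes, and with which strand setting, is not given in the sources used here. Genes were located in GENCODE vM1 on mm9. Tag counts were recovered from the deposited CPM values, since 100% of the values in each library were whole multiples of 1 tag within 0.0051 CPM, giving 10540698 to 51710968 tags per library; columns of per-mouse values left out numbered 0.

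log2(CPM + 0.1) was computed for 15851 genes (0.1 CPM or more in 2 libraries or more) and fitted with limma 3.58.1 in R 4.3.3 (5 group means, mean-variance trend, two-sided, Benjamini-Hochberg over all genes), which was tested on simulated data. Comparisons were made between SE, SE + LEV and pre-SE mice, and the 8 PILO mice were set against the 2 pre-SE mice by an exact permutation test, whose p was not adjusted over the 7 genes. Alternatives were pseudocounts of 0.01, 0.5 and 1, no filter, a filter of 1 CPM, a replicate block, median-of-ratios scaling, no trend, only the groups compared, edgeR 4.0.16 and DESeq2 1.42.0 on recovered tags, and each mouse left out. The member genes and lists were chosen with earlier results of these data known. Named genes were the members, genes of the wider list called in any comparison, and the 3 genes most like each member; the others named in the report with a logFC are marked as chosen after their values were seen. The limma p-values set differences between groups against the spread between these mice within groups. The exact p sets the observed difference against those of the regroupings of the same mice. Python 3.11.15 was used with SciPy 1.17.1, pandas 2.3.3, numpy 2.4.6 and matplotlib 3.10.9.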

Additional observations from a re-analysis of the deposited data

Results flagged for a closer look

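2 genes of the wider list, chosen after their values were seen, had groups that moved in opposite directions. The share of all genes that did so was not computed. In single comparisons, 13.4% of all genes tested lay lower with LEV at 6 h and 15.2% higher at 2 days. Against pre-SE mice without LEV, 18.6% lay higher at 6 h and 25.6% lower at 2 days. The LEV mice were below the mice without LEV at 6 h and above them at 2 days in *Chrnb1*, a muscle-type nicotinic subunit, which was at 0.61 and 0.55 CPM at 6 h, 0.33 and 0.47 at 6 h with LEV, 0.47 and 0.53 at 2 days and 0.55 and 0.62 at 2 days with LEV. The difference between the LEV effects was 0.648 on the log2(CPM + 0.1) scale (limma interaction term, adjusted p = 1.0), so it did not pass a test, and each of these values rested on 5 to 24 tags. *Grk5*, a receptor kinase, was at 4.17 and 3.15 CPM in the pre-SE group, 5.84 and 5.41 at 6 h and 2.46 and 2.72 at 2 days, above pre-SE mice at 6 h and below them at 2 days. The logFC at 2 days minus that at 6 h was −1.09 (limma test of SE 2 days against SE 6 h, adjusted p = 0.094), and the effects at both times share the pre-SE mice.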

How the results depend on the processing

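The count of the 7 genes called was 0 under every alternative in each of the 11 comparisons, except that without SE 2 days replicate 1 it was 1 in SE 2 days against pre-SE mice (*Chrm1*, adjusted p = 0.0324; range 0 to 1 over the mice left out). The count by the exact permutation test was 1 with pseudocounts of 0.01, 0.5 and 1, and 0 after median-of-ratios rescaling (*Chrm1* exact p = 0.0667). Some logFC values near 0 changed sign. At SE 6 h, median-of-ratios rescaling, edgeR and DESeq2 gave 0.02, 0.041 and 0.045 for *Chrm2* and 0.027, 0.025 and 0.029 for *Ache*. Leaving out 1 mouse gave ranges at SE 6 h of −0.317 to 0.106 for *Chrm2*, −0.079 to 1.231 for *Chrm4* and −0.323 to 0.122 for *Ache*, and at SE 2 days of −0.823 to 0.487 for *Chrm4*, −0.689 to 0.093 for *Chrna4* and −0.522 to 0.142 for *Chrnb2*. The causes were not tested. *Rgs7* was called at SE 6 h under every alternative, and at SE + LEV 6 h a pseudocount of 1 gave an adjusted p of 0.0535. Without the mean-variance trend *Rgs4* (0.0585) and *Lypd1* (0.0732) at 2 days were not called, and *Plcb3* was not called with only the groups compared (0.0557) or without either SE 6 h mouse (0.056 and 0.0553); *Lypd1* was not called without any 1 of the 4 mice at 6 h (0.0615 to 0.0629).

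Same-numbered mice are different animals, and the deviations of same-numbered mice had correlations across genes from −0.47 to 0.4. A replicate block gave 0 of the 7 genes in each comparison and changed the call of *Plcb3* at 2 days (adjusted p = 0.0543). With the numbers crossed in SE + LEV 2 days mice, a pairing added after the data were seen, 0 of 7 genes were called against SE 2 days and against pre-SE mice (0 and 599 of all genes, beside 0 and 410 with the numbers as labelled). Over all genes, DESeq2 called 1107 at 6 h and 1607 at 2 days against pre-SE mice, where limma called 469 and 897 (111 to 531 and 249 to 1162 with 1 mouse left out). With LEV against without LEV it called 75 at 6 h, 4 at 2 days, 82 in the mean and 3 in the difference between times, where limma called 2, 0, 0 and 0 and its other settings with all mice 0 to 9. With 1 mouse left out limma called up to 10 at 6 h (without SE 6 h replicate 2), 2 at 2 days and 30 in the mean (without SE + LEV 2 days replicate 1). DESeq2 called 378 at 6 h with LEV against pre-SE mice (limma 51, or 14 with a pseudocount of 1, 27 with 0.5 and 31 without the trend) and 819 at 2 days with LEV (limma 451, or 63 with only the groups compared). From 6 h to 2 days it called 1293 without LEV and 626 with LEV (limma 674 and 339, the latter 122 with only the groups compared and 223 by edgeR), and over the PILO groups 1125 (limma 489). With 1 mouse left out, limma called 0 to 88 at 6 h and 108 to 638 at 2 days with LEV against pre-SE mice, 162 to 917 and 42 to 482 from 6 h to 2 days without and with LEV, and 63 to 689 over the PILO groups. Among the 7 genes, depth limits *Chrm2* most, at 30 tags in the shallowest case; in the wider list, *Chrnb1* rested on 3 to 24 tags and *Chrne* on 0 to 14 outside SE 6 h mice.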
